A study of Mus musculus with 24 samples.

Results

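The genes described here encode the proteins of the cytosolic ribosome, measured in RNA that was recovered with polysomes from mouse liver. Members were chosen by symbol alone: Rpl or Rps followed by a number with at most 1 more letter or an l, together with Rplp0, Rplp1, Rplp2, Rpsa and Fau. Of 84 symbols that matched, 3 (Rps4l, Rpl6l and Rpl32l) are pseudogenes in the reference annotation and were left out, which gave 81 members among 52636 genes, 49 of the large and 32 of the small subunit. A low-count filter kept 79 of the 81 for testing. Rpl10l had 0 reads in all 24 libraries, and Rpl39l had 58 reads in total and was not tested.

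The mice were of the strain C57BL/6 and 5 months old. From 2 months of age the calorie-restricted group (CR) had 30% fewer calories for 3 months, while control mice ate ad libitum (AL). Tissue was collected at 6 zeitgeber times (ZT 2, 6, 10, 14, 18 and 22 h), and each of the 12 combinations of diet and hour has 2 libraries. When CR mice received their food is not stated in the sources used here. The labels do not say that the 2 libraries of a group come from separate animals, so some of the spread between them may be technical. P-values of the diet tests rest on how far the libraries of a group lie apart. Those of the rhythm tests rest also on how far the group means depart from the fitted cosine.

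A ribosome is built from ribosomal RNA and a fixed set of proteins, most of them present as a single copy. In mammals most of the mRNAs of these proteins begin with a tract of pyrimidines at the cap, the 5′ terminal oligopyrimidine (TOP) tract, through which the mTOR pathway and the RNA-binding protein LARP1 control how many of them carry ribosomes. In liver their recruitment to polysomes is known to follow feeding and the time of day. Only polysome-associated RNA was analysed here, so the amount of an mRNA and its loading onto ribosomes cannot be told apart. In whole liver, fewer cells of a type and less RNA per cell cannot be told apart either.

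Windows of 30 bases around the annotated start are shown to let the tract be seen in the genes that the results turn on. They are from RefSeq on GRCm38.p6, 5′ to 3′ on the strand of the gene, with the start as base 16. Capitals mark an unbroken run of at least 7 C or T on that strand that touches the stretch from 5 bases before the start to 6 bases after it.
Rps6 (chr4:86857353-86857382, minus strand): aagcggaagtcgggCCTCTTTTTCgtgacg
Rps18 (chr17:33955651-33955680, minus strand): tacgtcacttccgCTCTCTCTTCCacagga
Fau (chr19:6057932-6057961, plus strand): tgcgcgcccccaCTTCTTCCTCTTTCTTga
Rpl15 (chr14:18270972-18271001, minus strand): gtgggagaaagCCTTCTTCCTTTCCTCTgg
Rpl35 (chr2:39005117-39005146, minus strand): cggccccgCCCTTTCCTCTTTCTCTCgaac
Rpl10 (chrX:74270801-74270830, plus strand): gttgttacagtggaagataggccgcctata
Rplp0 (chr5:115559452-115559481, plus strand): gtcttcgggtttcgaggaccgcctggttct
Rps23 (chr13:90923107-90923136, plus strand): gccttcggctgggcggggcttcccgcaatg
The first 5 genes hold such a run at the listed start and the last 3 do not, which says only that these letters are not at the start RefSeq lists. The table had entries for 61 members, and 31 of them (50.8%) held a run at some listed start, against 17.0% of all 27025 genes of the table. The other 20 members had no entry.

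Depth and background differed between libraries. Counted reads ranged from 13.8 to 60.8 M per library (M, mega), and 5.64 to 59.6 M lay outside features that collect ribosomal RNA. Nuclear ribosomal RNA took 0.505% to 56.2% of a library. The members collected 124769 to 2493962 reads per library, so counting error is small beside the spread between libraries. The 10 hepatocyte markers (albumin, apolipoproteins and the like) summed to 52932 to 141654 CPM (counts scaled to a common library size, with edgeR's trimmed mean of M-values, TMM, as composition factor), and the 7 neutrophil markers to 2.17 to 105 CPM. In CR ZT18 1 and CR ZT18 2 the skeletal muscle genes Ckm, Acta1, Myh4, Tnnt3 and Myl1, a list chosen after the values were seen, lay above all 22 other libraries. Acta1 was at 120 and 159 CPM there, and at most at 21.8 CPM elsewhere (CR ZT6 1). CR ZT10 2 stood lowest of all libraries in ribosomal protein mRNA.

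The share of reads held by ribosomal protein genes was highest at ZT14 and ZT18 in both diets. As a percentage of reads outside ribosomal RNA features, the 2 AL libraries of each hour held 1.91% and 1.70% at ZT2, 2.27% and 2.58% at ZT6, 2.07% and 2.22% at ZT10, 3.42% and 4.24% at ZT14, 3.72% and 3.13% at ZT18, and 1.85% (2C) and 2.51% (2d) at ZT22. All 4 AL libraries of ZT14 and ZT18 lay above the 8 of other hours. The CR libraries held 2.08% and 2.27% at ZT2, 2.55% and 3.27% at ZT6, 2.93% and 1.15% at ZT10, 5.29% and 3.09% at ZT14, 4.63% and 4.18% at ZT18, and 3.39% and 2.35% at ZT22. In CR the ranges touched, because CR ZT14 2 (3.09%) lay below CR ZT22 1 (3.39%) and CR ZT6 2 (3.27%). Means were 3.63 ± 0.475% at ZT14 and ZT18 against 2.14 ± 0.314% at other hours in AL, and 4.30 ± 0.924% against 2.50 ± 0.723% in CR (SD, n = 4 and 8 libraries).

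**Figure D1:**
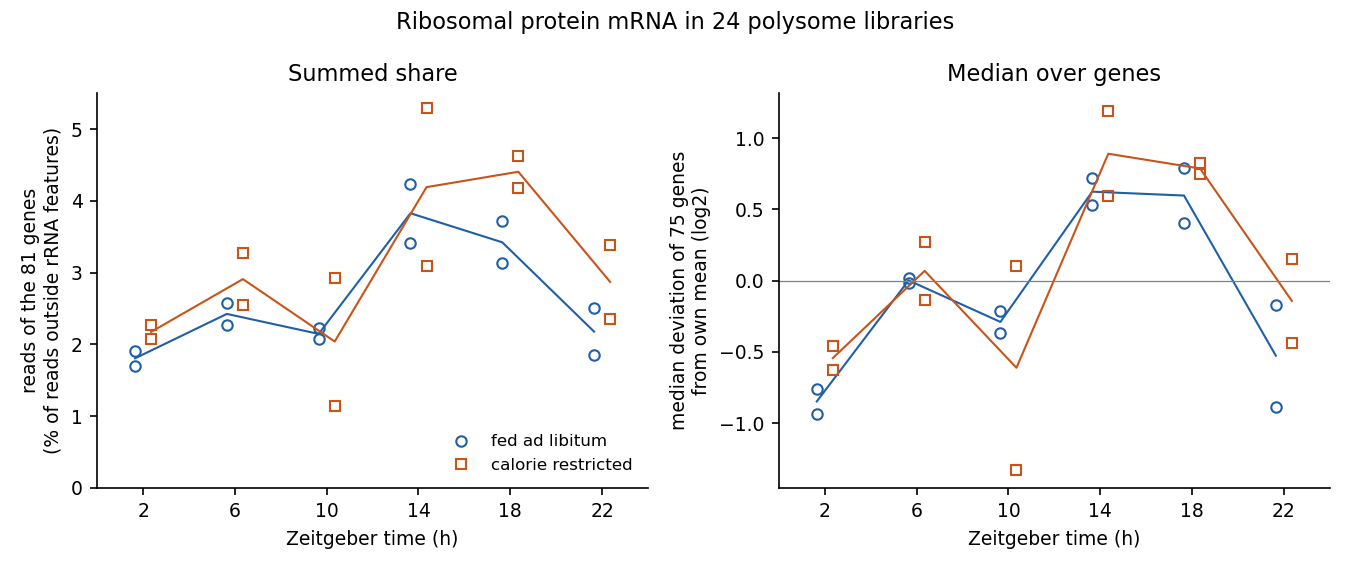
Reads of the 81 genes as a percentage of reads outside ribosomal RNA features (left), and the median over 75 genes of the log2 deviation from each gene's own mean (right), against zeitgeber time in hours. Each symbol is 1 library (circles AL, squares CR) and lines join the means of the 2 libraries of a group; on the right the 8 libraries of ZT14 and ZT18 lie between 0.41 and 1.19, above the other 16.

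In the median over genes, the libraries of ZT14 and ZT18 lay apart from all others. For the 75 members with a mean of at least 10 CPM, the log2 deviation from each gene's own mean over the 24 libraries was computed, and its median over genes was taken in each library. This median was between 0.41 (AL ZT18 2) and 1.19 (CR ZT14 1) in the 8 libraries of ZT14 and ZT18. In the other 16 it was between -1.33 (CR ZT10 2) and 0.27 (CR ZT6 2). In those 8 libraries 73 to 75 of the 75 genes lay above their own mean. In AL ZT2 1, AL ZT2 2, AL ZT22 2C and CR ZT10 2 no more than 1 did. The mean over ZT14 and ZT18 exceeded that of the other hours in all 75 of these genes. Over the 79 tested members the median difference was 1.09 log2 units, against -0.04 over all 15490 tested genes. The 79 include Rpl3l, which passed the low-count filter through the CR ZT18 libraries, and Rpl24, which had few reads. With reads outside ribosomal RNA as the only scaling the median difference was 0.81 against -0.25.

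The share of ribosomal RNA was set beside these values library by library. As a percentage of reads outside ribosomal RNA features, the ribosomal protein share had a Spearman rho of -0.19 with the nuclear ribosomal RNA share over 24 libraries. As a percentage of all counted reads, which hold the ribosomal RNA in their total, rho was -0.76. AL ZT14 2 and AL ZT22 2C held nearly equal nuclear ribosomal RNA, 56.2% and 54.0%, and 4.24% and 1.85% ribosomal protein reads. At the other end, AL ZT18 2 and AL ZT10 1 held 4.77% and 4.76% ribosomal RNA, and 3.13% and 2.07% ribosomal protein reads. Among the 12 libraries with less ribosomal RNA, the median deviation was 0.41 to 1.19 in the 5 of ZT14 and ZT18 and -0.93 to 0.15 in the other 7. Among the 12 with more it was 0.53 to 0.79 in the 3 of ZT14 and ZT18, all AL, and -1.33 to 0.27 in the other 9. In CR the ribosomal RNA share itself moved with the hour, at 1.27% to 16.4% at ZT14 and ZT18 and 2.01% to 45.8% at other hours, while in AL the ranges were 4.77% to 56.2% and 0.505% to 54.0%.

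**Figure D2:**
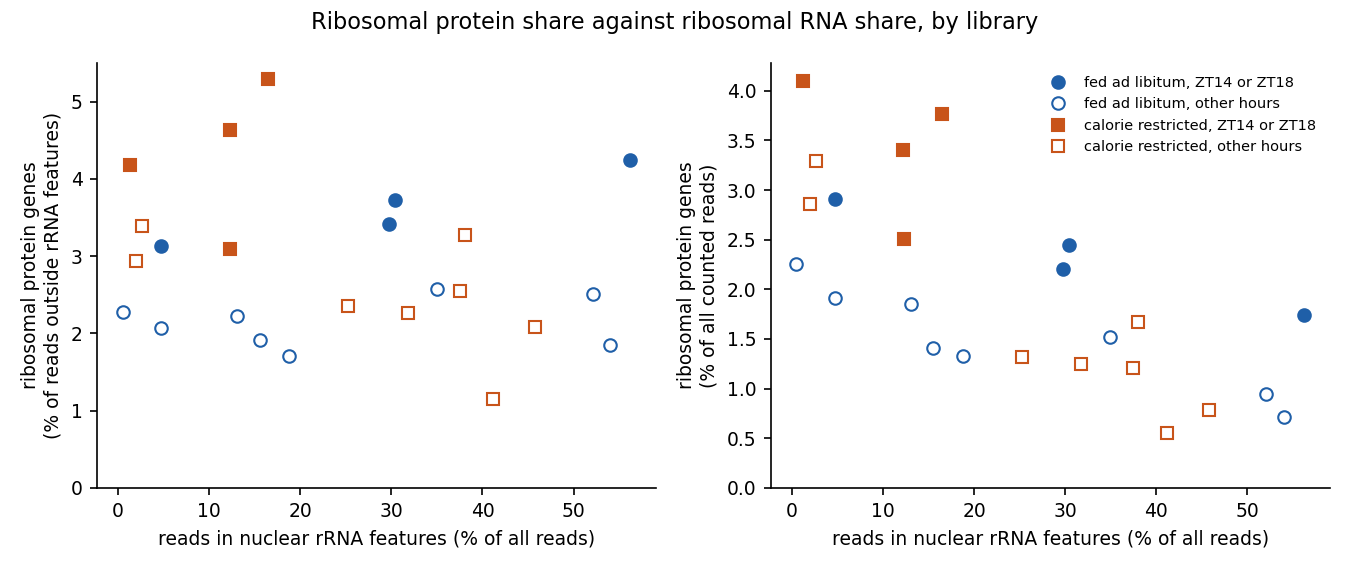
Ribosomal protein reads as a percentage of reads outside ribosomal RNA features (left) and of all counted reads (right), against the nuclear ribosomal RNA share in percent. Each symbol is 1 library (circles AL, squares CR, filled for ZT14 and ZT18); on the left the filled symbols lie at 3.09% or more across the whole range of ribosomal RNA, and on the right values are lower at higher ribosomal RNA shares (Spearman rho -0.76).

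Rhythm over the day was tested with a cosine and a sine of 24 h per diet, and amplitude means the height of the fitted peak over the mean, in log2. In the test of the rhythm averaged over the diets, which was added after the data were seen, 50 of 79 members were called at an adjusted p below 0.05 (edgeR's quasi-likelihood test, Benjamini-Hochberg over all tested genes). Of all 15490 tested genes 5.17% were called. The 50 comprised 29 of 47 tested large-subunit and 21 of 32 small-subunit genes. The fitted peaks of the 50 lay between 14.0 and 16.2 h, with a median of 15.2 h, and their amplitudes between 0.47 and 0.93, with a median of 0.66. The count fell to 22 without CR ZT14 1, 27 without AL ZT2 2, 27 without CR ZT2 1, 29 without AL ZT2 1, 31 without CR ZT2 2, 33 without AL ZT14 2 and 33 without CR ZT18 2. It was 25, all among the 50, without both CR ZT18 libraries, and 10 without a composition factor. Rpl12, Rpl28, Rpl32, Rpl35, Rps10, Rps16, Rps18, Rps19 and Rps6 were called under all 35 alternatives run.

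Rps6, the small-subunit protein that S6 kinases phosphorylate downstream of mTOR, had the smallest p of the members. Its level at ZT14 was 138 and 194 CPM in AL and 178 and 133 CPM in CR, and at ZT18 it was 144 and 142 CPM in AL and 121 and 152 CPM in CR. At the other hours it ranged from 48.6 to 101 CPM in AL (median 58.2) and from 45.2 to 82.2 CPM in CR (median 62.7), so the hours did not overlap in either diet. The averaged amplitude was 0.72 (adjusted p = 0.00119 by edgeR's quasi-likelihood test). Rpl10, the large-subunit protein that joins last in the assembly of the subunit and sits near the catalytic site, was at 397 to 420 CPM at ZT14 and ZT18 in AL and at 150 to 298 CPM at other hours. In CR it was at 287 to 464 and 113 to 160 CPM, again with no overlap. Its averaged amplitude was 0.69, with a peak at 15.2 h (adjusted p = 0.0016 by edgeR).

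Tested in 1 diet at a time, few members passed after adjustment, and the counts depended on the method. At an unadjusted p below 0.05 there were 55 of 79 members in AL and 65 in CR by edgeR. Called after adjustment were 2 in AL and 1 in CR by edgeR, 18 and 18 by DESeq2, and 16 and 34 by edgeR with no low-count filter. Rps6 (amplitude 0.84) and Rplp0 (0.72) were called in AL, where 0.42% of all genes were, with adjusted p of 0.0371 and 0.0413 by edgeR. Rpl10 (0.77) was called in CR, where 1.94% of all genes were, with an adjusted p of 0.0208 by edgeR. Next by p were Rpl28 in AL (adjusted p = 0.136) and Rpl15 and Rps25 in CR (adjusted p of 0.0658 and 0.0766), by edgeR. These calls changed when single libraries were left out. The AL count was 0 without any 1 of AL ZT2 1, AL ZT2 2, AL ZT6 1, AL ZT10 2, AL ZT14 1, AL ZT14 2, AL ZT18 1, AL ZT18 2, AL ZT22 2C, AL ZT22 2d, CR ZT2 1, CR ZT2 2, CR ZT14 2 or CR ZT18 1. It was 1 without AL ZT6 2, CR ZT6 1, CR ZT18 2 or CR ZT22 1, and 9 without CR ZT10 2. The CR count was 0 without CR ZT2 1, CR ZT14 1, CR ZT14 2 or CR ZT18 2, 2 without CR ZT6 1, 15 without CR ZT6 2 and 24 without CR ZT10 2. The median fitted peak of the 75 members at or above 10 CPM was 14.6 h in AL and 15.7 h in CR. The rhythm difference between the diets was called for 0 of 79 members and 0% of all genes by edgeR, and DESeq2 also called 0. At an unadjusted p below 0.05 there were 0 members by edgeR. The smallest p among members were those of Rpl15 (unadjusted p = 0.0994, edgeR), Rplp0 and Rpl4.

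**Figure D3:**
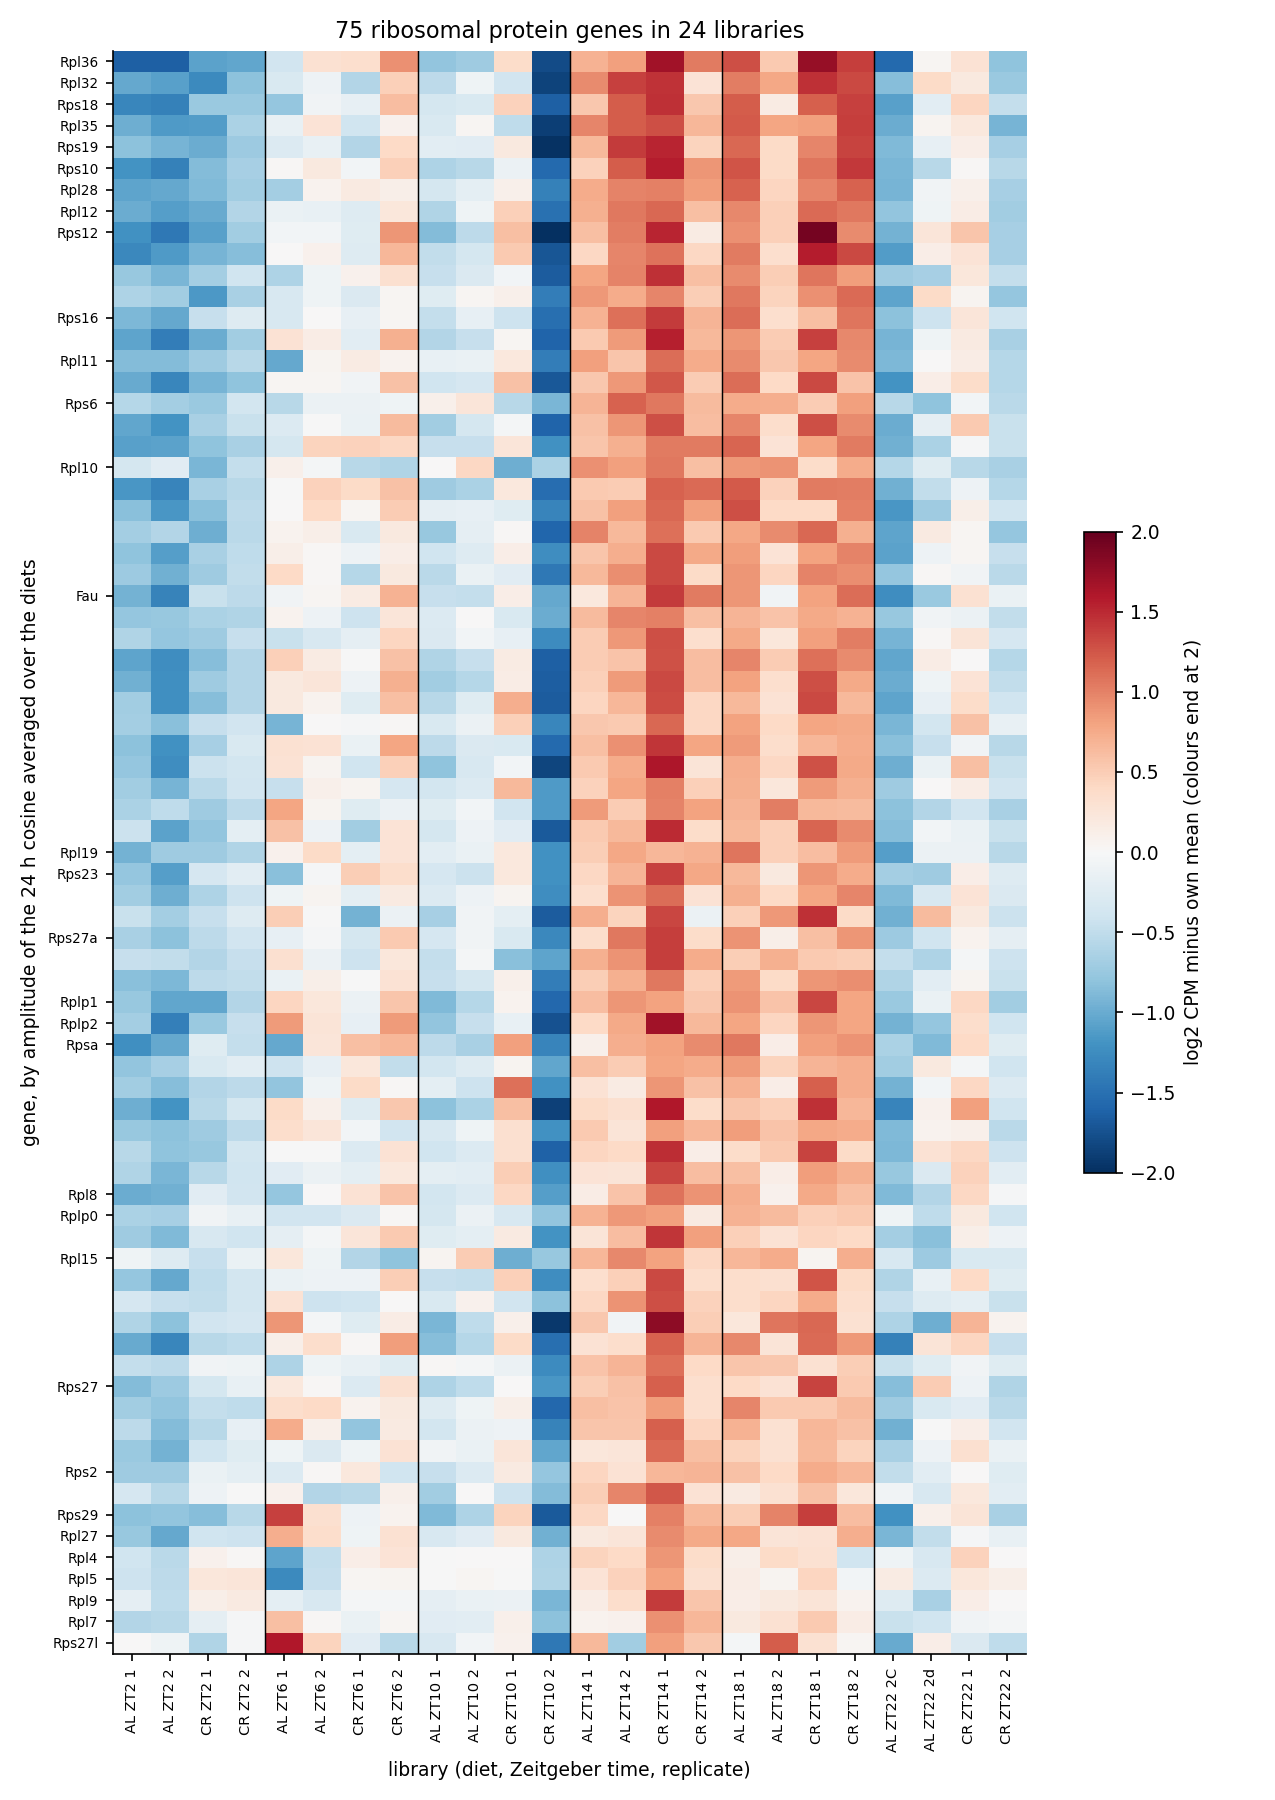
Log2 CPM minus each gene's own mean for 75 members (rows, ordered by averaged amplitude, with a selection of genes labelled) in 24 libraries (columns, ordered by zeitgeber time, diet and replicate); red is above and blue below the mean. The 8 columns of ZT14 and ZT18 are red in 73 to 75 rows, and the column CR ZT10 2 is blue in all rows.

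The members of widest spread over libraries were Rpl36 (SD of log2 1.11), Rps12 and Rpl32. Rpl36 rose to 442 to 754 CPM at ZT14 and ZT18 in AL, from 98.8 to 380 CPM at other hours, and to 634 to 1032 CPM in CR, from 88.9 to 584 CPM. Of its 50-base words 81.1% also occur in transcripts of other genes, so reads may be shared with copies. Rpl32 was at 245 to 370 CPM against 66.8 to 187 CPM in AL, and at 172 to 393 CPM against 39.2 to 199 CPM in CR, where CR ZT14 2 overlapped the other hours. Their averaged amplitudes were both 0.93, with adjusted p of 0.0305 for Rpl36 and 0.00602 for Rpl32 by edgeR. Rps12, with an amplitude of 0.80, was not called (adjusted p = 0.0508, edgeR).

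Non-overlap was counted over all genes for the same hours, a split chosen after the values were seen. In AL the 4 libraries of ZT14 and ZT18 lay above the other 8 in 58 of 79 members and in 1.41% of all tested genes. In CR this held for 43 of 79 members and 2.65% of genes. All 8 libraries of both diets lay above all other 16 in 18 members, among them Rps6, Rpl28, Rpl35, Rpl11 and Rps2, and in 0.226% of genes. The 10 hepatocyte markers summed to 69627 to 141654 CPM at those hours and to 52932 to 115460 CPM at others, and 3 of 5 tested neutrophil markers were rhythmic with peaks from 22.7 to 0.181 h. Of 10 hepatocyte markers 1 was called for the averaged rhythm, Tat (peak at 12.6 h), and of 5 cholangiocyte markers 2 were, Krt19 (amplitude 1.04, peak at 16.7 h) and Sox9 (peak at 22.6 h). The cholangiocyte markers summed to 34.8 to 59.3 CPM at ZT14 and ZT18 and to 18.5 to 116 CPM at other hours. The part of these cells in the rhythm of the ribosomal protein genes was not tested.

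The pattern was shared across nearly the whole set. The mean pairwise Pearson r of the 75 members over 24 libraries was 0.82, and the first principal component held 86.1% of their variance. These points share libraries, their depth and their normalization. Rpl5 (r = 0.52 with the median of the others), Rps27l (0.52), Rpl4 (0.59), Rpl15 (0.63) and Rpl10 (0.73) followed the others least of the members at or above 10 CPM. Of those members Rpl7 (SD of log2 0.41), Rpl5 (0.43) and Rpl4 (0.43) had the narrowest spread, and of all tested members Rpl24 (0.40), with 216 reads in all.

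Rpl5 and Rpl11 bind 5S ribosomal RNA together and, outside the ribosome, restrain Mdm2, the ligase that degrades p53. Rpl11 was at 456 to 607 CPM at ZT14 and ZT18 in AL against 155 to 328 CPM at other hours, and at 528 to 682 against 121 to 365 CPM in CR. Its averaged amplitude of 0.73 was called (adjusted p = 0.00717, edgeR). Rpl5 was at 141 to 185 against 55.2 to 150 CPM in AL and at 129 to 235 against 88.5 to 160 CPM in CR, and both pairs overlap. Its averaged amplitude was 0.33 (adjusted p = 0.125, edgeR). Whether the amplitudes of Rpl5 and Rpl11 differ was not tested.

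Rplp0, Rplp1 and Rplp2 form the stalk that recruits elongation factors. Rplp0 was at 223 to 262 CPM at ZT14 and ZT18 and at 90.5 to 135 CPM at other hours in AL, with no overlap. In CR it was at 163 to 253 and 82.6 to 163 CPM, where CR ZT14 2 lay just below CR ZT22 1. Its averaged rhythm was called (amplitude 0.54, peak at 16.2 h, adjusted p = 0.0052, edgeR). The acidic partners Rplp1 and Rplp2 had amplitudes of 0.59 in both and adjusted p of 0.0976 and 0.171 by edgeR.

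Several members serve as reference genes in quantitative PCR. Of the 8 listed, Rplp0, Rps18, Rpl32, Rpl19 and Rpl13a were called for the averaged rhythm, and Rps29, Rpl4 and Rpl27 were not. Rps18 was at 355 to 739 CPM at ZT14 and ZT18 in AL against 124 to 302 CPM at other hours, and its mean was 2.74-fold higher there in AL and 2.47-fold in CR. Rpl4 had the lowest ratio in CR of the 75 members, 1.22, against 1.59 in AL. Of the 8, 0 were called for the diet average by edgeR, and 0 had an unadjusted p below 0.05.

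The ubiquitin fusions carry a ribosomal protein behind ubiquitin or a ubiquitin-like domain. Rps27a and Fau were called for the averaged rhythm, with amplitudes of 0.60 and 0.65 and adjusted p of 0.028 and 0.0335 by edgeR. Of the 6 ribosomal proteins outside the rule, Rps3a1 and Rack1 were called for it, with amplitudes of 0.62 and 0.56.

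Paralogs are given separately. Rps27l, a paralog of Rps27 known as a target of p53, had the highest level per kilobase of transcript of all members, 1096 CPM per kb, ahead of Rps29 (1054) and Rpl36 (1047), and Rps27 was at 450 CPM per kb. Rps27l was at 1482 CPM in AL ZT6 1 and 1141 CPM in AL ZT18 2, and from 183 to 862 CPM in the other libraries. Its averaged amplitude of 0.21 was the smallest of the tested members (adjusted p = 0.729, edgeR), while that of Rps27 was 0.50 (adjusted p = 0.0975, edgeR). By diet, the fit for Rps27l had an amplitude of 0.19 and a peak at 8.2 h in AL, and 0.45 and 15.5 h in CR. In CR Rps27l was at 506 to 862 CPM at ZT14 and ZT18, and at 183 to 522 CPM at other hours. Whether the paralogs differ in rhythm was not tested. At its listed start Rps27 has a run of 9 pyrimidines that begins 2 bases before it. For Rps27l 1 of 2 listed starts is shown. Its run of 9 begins 12 bases before that start and also ends before it, so a transcript from that start does not hold the run.
Rps27 (chr3:90213634-90213663, minus strand): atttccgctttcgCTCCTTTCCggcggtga
Rps27l (chr9:66946071-66946100, plus strand): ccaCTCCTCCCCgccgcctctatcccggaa

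**Figure D4:**
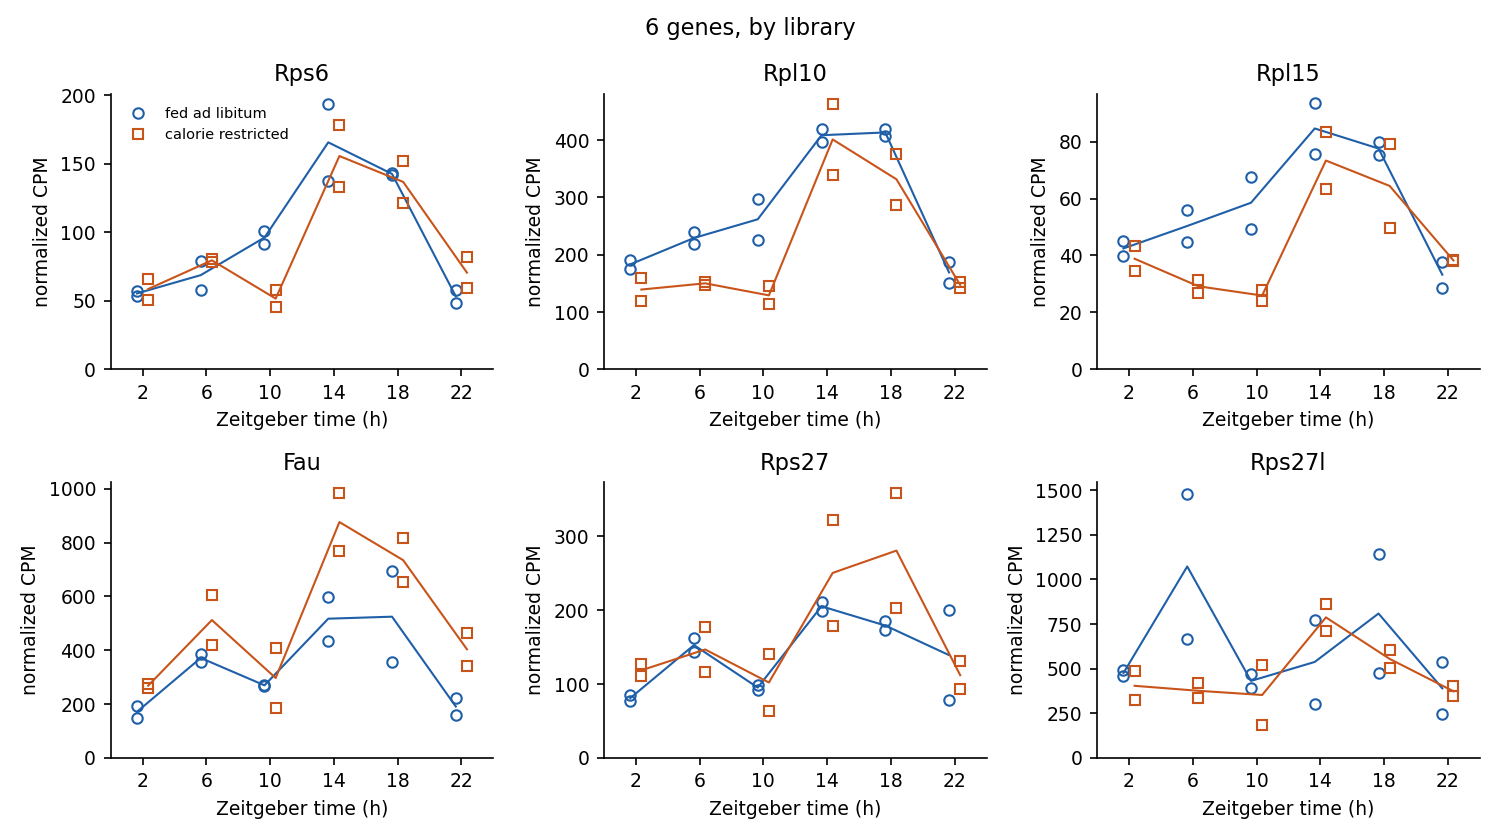
Normalized CPM of Rps6, Rpl10, Rpl15, Fau, Rps27 and Rps27l against zeitgeber time in hours. Each symbol is 1 library (circles AL, squares CR) and lines join group means; Rps6 and Rpl10 separate ZT14 and ZT18 from the other hours in both diets, and Rps27l does not.

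Rpl3l, which replaces Rpl3 in the ribosomes of striated muscle, had 105 reads in CR ZT18 1 and 245 in CR ZT18 2, that is 2.84 and 2.91 CPM, and at most 14 reads and 0.586 CPM in any other library. These are the libraries in which the skeletal muscle genes were high, and the part of muscle RNA in the value of Rpl3l was not tested. Because it passed the low-count filter through those 2 libraries, no tested difference is given for it. Rpl10l, a paralog of testis, had 0 reads, and Rpl39l had a mean of 0.0902 CPM per kb. Rpl24 (0.355 CPM per kb), Rpl13a (7.07) and Rpl23a (8.78) were also low; 47.0%, 35.4% and 62.3% of their exon bases overlap other annotated genes, where reads of libraries without strand cannot be assigned. The same holds for 66.2% of the exon bases of Rpl35.

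Averaged over the 6 hours, 6 of 79 members differed between the diets, 4 higher and 2 lower in CR. Of all tested genes 12.7% were called, 5.6% as higher and 7.05% as lower, so the share of members (6 of 79) was not above that of all genes. The median over the 79 was 0.20 log2 units with 61 above 0, against -0.02 over all genes. The 79 include Rpl3l, which passed the low-count filter only through CR libraries. By hour the median was 0.34 at ZT2, 0.11 at ZT6, -0.13 at ZT10, 0.26 at ZT14, 0.21 at ZT18 and 0.33 at ZT22. At ZT10 the 2 CR libraries lay 1.46 log2 units apart, and the median there was 0.43 without CR ZT10 2 and -1.07 without CR ZT10 1. The sign also turned at ZT6 without CR ZT6 2 (-0.20) and at ZT14 without CR ZT14 1 (-0.11).

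The 4 higher members have different places in the ribosome. Fau, cleaved to the small-subunit protein eS30, was at 149 to 693 CPM in AL (median 314) and 184 to 984 CPM in CR (median 441), and rose by 0.60 ± 0.16 log2 units (± SE, adjusted p = 0.0171, edgeR). Rpl8, which lies near the catalytic centre of the large subunit, was at 210 to 697 CPM (median 337) and 195 to 895 CPM (median 560) and rose by 0.57 ± 0.17 (adjusted p = 0.0264, edgeR). Rps23, a small-subunit protein of the decoding centre, was at 109 to 378 CPM (median 180) and 101 to 607 CPM (median 286) and rose by 0.51 ± 0.16 (adjusted p = 0.0368, edgeR). All 4 had a positive difference at 6 of 6 hours, and over the whole day the ranges of the diets overlapped. All 12 CR libraries lay above all 12 AL libraries in 0.11% of genes, and below them in 0.174%.

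Rpsa, a small-subunit protein also known as the laminin receptor, was at 187 to 913 CPM in AL (median 294) and 174 to 837 CPM in CR (median 677). It rose by 0.64 ± 0.21 log2 units, the largest of the 4 (adjusted p = 0.0452, edgeR). At ZT2, ZT6, ZT14 and ZT22 both CR libraries lay above both AL libraries in Rpsa, Fau, Rpl8 and Rps23. Of the 75 members at or above 10 CPM this held for 51 at ZT2 (23.2% of all tested genes), 16 at ZT6 (19.5%), 0 at ZT10 (16.6%), 22 at ZT14 (22.8%), 21 at ZT18 (17%) and 24 at ZT22 (25.9%). Both CR libraries lay below both AL libraries in 1 member at ZT2 (27.1%), 9 at ZT6 (22.3%), 11 at ZT10 (21.9%), 0 at ZT14 (22.3%), 4 at ZT18 (20.1%) and 0 at ZT22 (24.5%). Of the 6 hours, ZT2 had the most members with both CR libraries above.

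Rpl10 and Rpl15 were lower in CR. Rpl10 was at 150 to 420 CPM in AL (median 233) and 113 to 464 CPM in CR (median 152), and fell by 0.43 on the log2 scale (SE 0.12, adjusted p = 0.0244, edgeR), with a negative difference at 6 of 6 hours. Rpl15, a large-subunit protein that binds the ribosomal RNA early in assembly, was at 28.7 to 93.4 CPM in AL (median 52.7) and up to 83.3 CPM in CR (median 38.3), and fell by 0.39 (SE 0.12, adjusted p = 0.0373, edgeR). At ZT10 Rpl10 was at 226 and 298 CPM in AL and 113 and 145 CPM in CR, and Rpl15 at 49.4 and 67.6 CPM in AL and at most 27.8 CPM in CR. At that hour their differences were -1.02 ± 0.30 and -1.18 ± 0.30, with adjusted p of 0.151 and 0.0765 by edgeR.

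**Figure D5:**
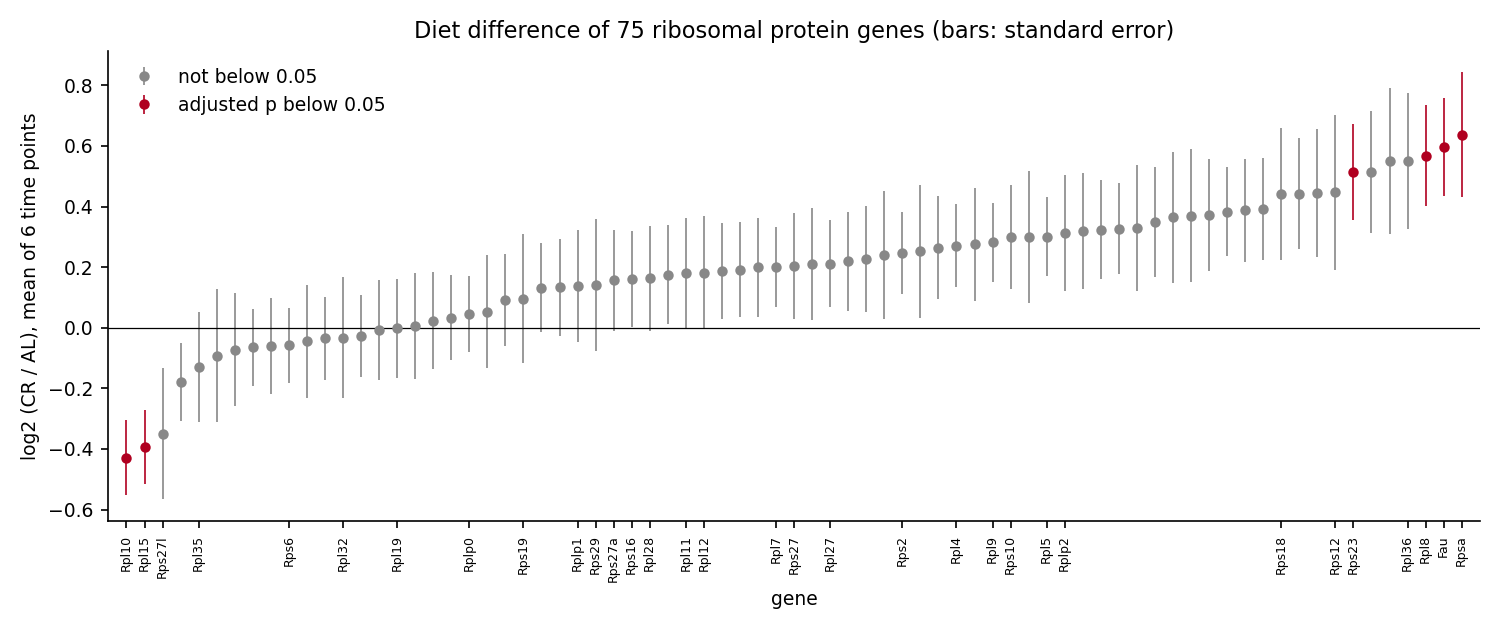
Log2 difference of CR against AL averaged over the 6 hours for 75 members (points, with standard errors), ordered by size, with a selection of genes labelled; red points have an adjusted p below 0.05. Rpl10 and Rpl15 lie lowest, and Rps23, Rpl8, Fau and Rpsa are the red points above 0.

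The diet calls depended on single libraries, except that of Fau, which held without any 1 of the 24 libraries. The count was 19 (17 higher) without CR ZT10 2. It was 1 without AL ZT2 2, AL ZT10 2, CR ZT2 1, CR ZT18 1 or CR ZT22 1, 2 without AL ZT2 1, AL ZT6 1, AL ZT18 2, AL ZT22 2C or CR ZT10 1, and 3 without AL ZT10 1, AL ZT14 1, CR ZT14 1 or CR ZT14 2. Among the 12 libraries with less ribosomal RNA it was 15, all higher, and among the 12 with more it was 0. The fits by ribosomal RNA share used 1 diet difference beside the hours, not the average over the 6 hours. Both diets were present only at ZT10 and ZT18 in the first, and only at ZT6 and ZT22 in the second. CR ZT10 2 was in the second. Their counts come from different hours, so they cannot be set against each other or against the 6-hour average. The count was also 0 without a composition factor. Of the 12 Kupffer cell markers 11 were called lower in CR and 1, Marco, higher (0.84, adjusted p = 0.0411, edgeR), with sums of 243 to 705 CPM in AL and 136 to 248 CPM in CR. Of 8 stellate cell and fibroblast markers 3 were called, all higher in CR, Dcn (0.87), Reln (0.70) and Des (0.96), with sums of up to 318 CPM in AL (median 138) and 163 to 309 CPM in CR (median 236). Of 11 tested T, B and NK cell markers 2 were called lower, Cd4 and Ighm. Of 7 endothelial markers Lyve1 was called higher (1.17) and Cdh5 lower (-0.60), and of 6 markers of red blood cell precursors Alas2 was called lower (-1.87). The sum of these 6 markers went the other way, with a median of 1125 CPM in AL (381 to 2534) and 1503 CPM in CR (527 to 4398). The part of these cells in the diet differences was not tested.

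At single hours 0 of 79 members were called in any of the 6 comparisons of the diets by edgeR. Of all genes 0.562% were called at ZT2, 0.387% at ZT6, 0.742% at ZT10, 1.7% at ZT14, 0.562% at ZT18 and 0.936% at ZT22. At an unadjusted p below 0.05 there were 1, 4, 4, 2, 1 and 4 members, and DESeq2 called 2 at ZT10 and 0 at the other hours. The smallest p by hour, ZT18 aside, were those of Rpl5 at ZT2 (0.71 ± 0.32), Rpl4 at ZT6 (0.95 ± 0.34), Rpl15 at ZT10, Rpl9 at ZT14 (0.78 ± 0.32) and Fau at ZT22 (1.08 ± 0.40). Their adjusted p by edgeR were between 0.0765 and 0.637. Next by p were Rplp0 (0.53) and Rps23 (0.66) at ZT2, Rps27l and Rpl5 (0.87) at ZT6, and Rpl10 and Rps6 (-0.90) at ZT10. They were followed by Rpl7 (0.72) and Rps9 (0.71) at ZT14, and Rpl8 (0.94) and Rpl41 (1.20) at ZT22. At ZT18 the smallest p were those of Rpl3l and of Rpl24, which had 0 and 3 reads in AL and 13 and 20 in CR, so that no fold is given for either, and the next was that of Rps27 (0.65 ± 0.43). Rps27l at ZT6 had the most negative of these values, -1.51 ± 0.54, with an adjusted p of 0.237 by edgeR. A diet difference that changes with the hour was called for 0 members and 0% of genes by edgeR. At an unadjusted p below 0.05 there was 1 member, Rpl15 (unadjusted p = 0.0453, edgeR).

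Other genes of translation were counted in the same tests, with no test between lists. For the averaged rhythm, 3 of 19 other mRNAs with a TOP tract were called, with Eef1g, Rack1 and Eif3h at amplitudes of 0.48, 0.56 and 0.46. The counts were 6 of 77 for mitochondrial ribosomal proteins, 1 of 39 for ribosome assembly factors (Nop2), 0 of 14 for RNA polymerase I and its factors, 2 of 36 for initiation factors and 0 of 17 for genes that control translation of these mRNAs. The median difference of ZT14 and ZT18 from the other hours was 0.49 log2 units for mitochondrial ribosomal proteins and 0.43 for the TOP list, beside 1.09 for the members and -0.04 for all genes. On the diet average, where 12.7% of all genes were called, the counts were 5 of 77 mitochondrial ribosomal proteins (1 higher, 4 lower), 1 of 19 on the TOP list, 2 of 39 assembly factors, 2 of 14 for RNA polymerase I, 3 of 36 initiation factors and 1 of 17 control genes. The initiation factors Eif5b (1.10 ± 0.27), Eif3j1 (0.76 ± 0.22) and Eif2s2 (0.59 ± 0.19) were higher in CR. So were the assembly factors Dkc1 (0.77 ± 0.18) and Riok1 (0.67 ± 0.17), and Taf1d (0.76 ± 0.19) and Twistnb (0.61 ± 0.17) of the RNA polymerase I list. Of the control genes Eif4ebp1, an inhibitor of cap-dependent initiation that mTOR restrains, fell by 0.65 (SE 0.16, adjusted p = 0.00762, edgeR). On the TOP list Eef1d, an elongation factor subunit, rose by 0.59 ± 0.19 (adjusted p = 0.0395, edgeR).

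Among members with a promoter entry and at least 10 CPM, the 29 with a pyrimidine run at a listed start had a median averaged amplitude of 0.62 (range 0.21 to 0.89), and the 27 without one 0.61. Of the 29, 19 were called for the averaged rhythm, and of the 27, 16. A run counted here may end before the start, as it does in Rps27l, which has the lowest amplitude of the 29. No test was made between the 29 and the 27.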

How the data were processed

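Polysome-associated, poly(A)-selected RNA was sequenced without strand in 24 libraries. The deposited values are raw read counts per Ensembl gene, 1 file per library. The submitters' processing notes name FastQC, HTSeq, DESeq2 and the build GRCm38.p5; the aligner is not given in the sources used here. Libraries were grouped by diet and ZT from the labels.

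Tests on these raw counts used edgeR 4.0.16 (quasi-likelihood, TMM, filter by group, R 4.3.3), with 12 group means, or with a cosine and a sine per diet for rhythms. P-values were adjusted by Benjamini-Hochberg over 15490 genes, with a threshold of 0.05. The statistics were run on simulated counts in which genes varied independently and all with the same spread. The members here vary together, so those runs do not cover changes that they share between libraries. Log2 deviations used CPM + 0.5. Members above 10 CPM on average were used for summaries per library. Alternatives were DESeq2 1.42.0, other scalings and filters, a replicate block, ribosomal RNA settings and leaving out libraries.

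Genes were named by rule: members called on the diet average, the 5 called of largest amplitude per diet, the 3 of smallest p where fewer than 3 were called, the 3 of highest and lowest level per kilobase and of widest and narrowest spread, the role lists, Rps6, and up to 3 called genes of smallest p in other lists. Other names (those called under all alternatives, non-overlapping or least correlated) were chosen after their values were seen. Members and lists were chosen with earlier results of these data known. Total RNA was not analysed here. Counting error is small at 124769 or more member reads per library, and it does not cover differences between libraries. Values of some single genes are not reported here.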

Additional observations from a re-analysis of the deposited data

Results flagged for a closer look

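Rpl15 was picked out because both CR libraries lay on one side of both AL libraries at some hours and on the other side at another. The difference of CR from AL was -0.79 log2 units at ZT6 and -1.18 at ZT10, where both CR libraries were below both AL libraries. It was 0.20 at ZT22, where both were above. The contrast between these hours was chosen after the values were seen and was not tested. Over all 6 hours the interaction had an unadjusted p of 0.0453 (adjusted p = 0.574, edgeR).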

How the results depend on the processing

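The 6 members named for the diet average kept the direction of that average under all 36 alternatives. For members named at single hours, the direction under the alternatives was not followed gene by gene. The median over members at single hours did turn, from 0.34 to -0.44 at ZT2 and from 0.11 to -0.34 at ZT6 with no composition factor (all genes -0.80 and -0.46), to -0.20 at ZT6 without CR ZT6 2 (also with CR ZT18 2 left out), to 0.43 at ZT10 without CR ZT10 2 and to -0.11 at ZT14 without CR ZT14 1. The count of 6 was 0 in the 12 libraries of higher and 15 in the 12 of lower ribosomal RNA share, 0 with no composition factor, 1 without AL ZT22 2C and AL ZT10 1, and 2 without CR ZT6 2 and CR ZT18 2. The fits by ribosomal RNA share had another model, with 1 diet difference beside the hours. They held both diets only at ZT6 and ZT22 (higher share) or ZT10 and ZT18 (lower share), so their counts are not comparable. At single hours the count of 0 was 1 at ZT6 with no low-count filter, 2 at ZT10 with DESeq2 and 5 at ZT22 with no composition factor. The AL rhythm count of 2 was 18 with DESeq2, 16 with no low-count filter, 1 with the replicate block, and 0 with no composition factor, without AL ZT22 2C and AL ZT10 1, or without both CR ZT18 libraries. The CR rhythm count of 1 was 2 with a minimum of 1 CPM in 12 libraries, 18 with DESeq2, 3 with no composition factor, 34 with no low-count filter and 0 without both CR ZT18 libraries. The averaged rhythm count of 50 was 10 with no composition factor and 25 without both CR ZT18 libraries. The median ribosomal protein share of 2.56% was 1.80% with all counted reads as denominator. With 1 library left out at a time the counts ranged from 1 to 19 for the diet average, 0 to 9 for the AL rhythm, 0 to 24 for the CR rhythm and 22 to 67 for the averaged rhythm. The cause of these changes was not tested.

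With the replicate block the diet average count was 4 and the averaged rhythm count 47. Same-numbered AL and CR libraries correlated at -0.12, -0.05, 0.26, 0.07 and -0.11 at ZT2 to ZT18. The labels state no pairing, and such correlations alone cannot decide whether the numbers pair the libraries. The subsets that leave out pairs of libraries and the averaged rhythm were chosen after seeing the data.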
